A study of Homo sapiens with 24 samples.

Results

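The transcriptional response of HCC1937 cells to combined EZH2 and AKT inhibition was set against that of HCC1395 cells, gene by gene. For each gene the quantity was the log2 fold change of inhibitor-treated over vehicle-treated HCC1937 cells minus the same log2 fold change in HCC1395 cells, so a positive difference means a larger rise or a smaller fall in HCC1937. All libraries of these conditions were taken by their labels, 12 of the 24 in the series, and no measured value entered the choice. Both lines are established human triple-negative breast cancer lines, and each stands here for 1 line only. The 4 groups of 3 libraries each, lettered A to C, were HCC1937 with both inhibitors, HCC1937 with DMSO, HCC1395 with both inhibitors and HCC1395 with DMSO. The inhibitors were 5 uM tazemetostat, which blocks EZH2, and 5 uM ipatasertib, which blocks AKT; the pair is written EZH2i+AKTi below, and DMSO is the solvent both drugs are given in. The only time course in the labels belongs to a different cell line prepared for ATAC-seq, which leaves the length of treatment here unclear. The labels do not tell whether libraries A to C are separate cultures; the spread on which every p-value rests may therefore be technical.

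EZH2 is the enzyme of Polycomb repressive complex PRC2, which methylates histone H3 and keeps developmental genes silent. AKT is the kinase below PI3K that promotes glycolysis and growth and holds the FOXO transcription factors out of the nucleus, so that FOXO target genes typically rise when AKT is blocked. The comparison asks in which genes the same drug pair gave different responses in both lines.

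Messenger RNA was captured by its poly(A) tail and counted per gene. Totals ran between 33469927 and 51815656 counts per library. Mitochondrial transcripts took 7.45 ± 0.96% of counts in HCC1937 EZH2i+AKTi, 5.77 ± 0.84% in HCC1937 DMSO, 6.2 ± 0.085% in HCC1395 EZH2i+AKTi and 3.85 ± 0.080% in HCC1395 DMSO (SD, n = 3 each), so the mean share was higher with the inhibitors in both lines; its part in the results was not tested. One library stood apart at low levels: HCC1395 DMSO library B held more counts than A and C of some genes that are high in HCC1937, such as KRT19 (0.298, 2.10 and 0.254 CPM, TMM-scaled counts relative to library size) and ESRP1 (0.0814, 0.518 and 0.0565 CPM). Not all such genes did so, since CDKN2A and KRT13, also high in HCC1937, had 0 counts in library B. The cause was not tested. Counts and epithelial genes that library B moves most are also given without it. Whether counting used the strand is not given in the sources used here, so genes whose spans overlap may share reads. Of 251 genes chosen by a rule, 80 overlap another tested gene, for example IFIT1 with LIPA, MCM2 with TPRA1, MCM7 with AP4M1, CDK2 with PMEL, CCND1 with LTO1, FGFR1 with LETM2, ITGB4 with GALK1, ACAT2 with TCP1 and KRT8 with KRT18. The first principal component of the log2 CPM values carried 82.7% of the variance and separated the lines. The second, with 9.60%, separated EZH2i+AKTi from DMSO in both lines. The third, with 2.92%, put HCC1937 EZH2i+AKTi and HCC1395 DMSO on one side and HCC1937 DMSO and HCC1395 EZH2i+AKTi on the other, which is the pattern of a response that differs between lines.

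The lines differed before treatment in 14920 of 19413 genes (76.9%), among them cell-cycle and lineage genes. CDKN2A, which encodes the CDK inhibitor p16, had 486, 538 and 556 CPM in HCC1937 EZH2i+AKTi, 368, 299 and 292 CPM in HCC1937 DMSO and 0 counts in all HCC1395 libraries, which allows up to 0.022 CPM with EZH2i+AKTi and 0.027 CPM with DMSO over the group. RB1, the brake on E2F, averaged 33.2 ± 2.16 CPM in HCC1937 DMSO and 158 ± 2.63 CPM in HCC1395 DMSO (SD, n = 3 each). Of the 10 epithelial identity markers, 9 were higher in HCC1937 DMSO than in HCC1395 DMSO, and their summed level was 10400 to 11100 CPM against 97.2 to 116 CPM. The label breast cancer thus covers a line with an epithelial profile and a line in which EPCAM (1.38, 2.42 and 1.52 CPM) and E-cadherin (0.0814, 0.604 and 0.367 CPM) were close to 0 under DMSO. Vimentin, the mesenchymal intermediate filament, averaged 59.2 ± 8.91 CPM in HCC1937 DMSO and 1546 ± 107 CPM in HCC1395 DMSO. Leukocyte markers summed to at most 5.16 CPM in any library. Endothelial markers reached 67.0 to 72.1 CPM in HCC1937 EZH2i+AKTi, against 36.4 to 39.3 CPM in HCC1937 DMSO, nearly all from CDH5 and PECAM1. Fibroblast markers reached 833 to 920 CPM in HCC1395 EZH2i+AKTi, against 796 to 818 CPM in HCC1395 DMSO, mostly COL1A2, and the part of these markers in the results was not tested.

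The response differed between the lines for 5174 of 19413 genes tested (26.7%) at an adjusted p of 0.05, of which 2830 (14.6%) were higher and 2344 (12.1%) lower in HCC1937. The balance of directions moved with the samples and the fit: it was 1933 higher and 2589 lower without HCC1395 DMSO library B, 2332 higher and 2493 lower in a fit of all 24 libraries, and close to even with RLE scaling or DESeq2. Each line taken alone changed in about as many genes: 10419 (53.7%) in HCC1937 and 10249 (52.8%) in HCC1395. In HCC1937 28.7% of all genes rose and 25% fell, and in HCC1395 27.4% rose and 25.4% fell. These shares, with 14.6% higher and 12.1% lower for the difference, are the background for all counts of gene lists below. In 6308 genes both lines changed in the same direction, and 4643 of these were not called as different between lines. Of the 5174 genes that differed, 726 had opposite responses called in both lines (3.74% of genes tested), with 336 higher in HCC1937 and lower in HCC1395, and 390 the reverse. The 336 became 215 without HCC1395 DMSO library B. A further 718 moved in the same direction in both lines but further in HCC1937, and 947 further in HCC1395; 1384 had a response called in HCC1937 alone and 1342 in HCC1395 alone.

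**Figure D1:**
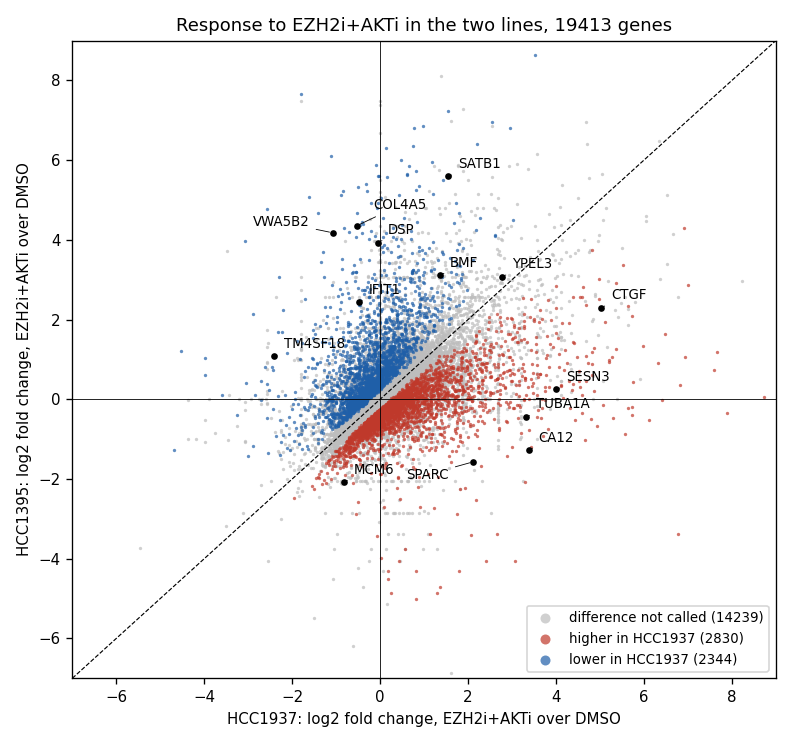
Each point is 1 of 19413 genes; the horizontal axis is the log2 fold change of EZH2i+AKTi over DMSO in HCC1937 and the vertical axis the same in HCC1395, with the dashed line marking equal responses. Genes called as higher in HCC1937 (2830) lie below the line, those called as lower (2344) above it, and CA12, SPARC, VWA5B2 and TM4SF18 sit in the quadrants of opposite sign.

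The programme with the lowest median difference among the 50 gene lists examined was that of interferon-stimulated genes, the antiviral genes that interferon switches on. Most of them rose in HCC1395, while in HCC1937 more of them fell than rose. Of 48 members tested, 40 rose and 1 fell with EZH2i+AKTi in HCC1395, against backgrounds of 27.4% rising and 25.4% falling among all genes tested. In HCC1937, 13 rose and 20 fell, against 28.7% and 25% of all genes. The difference was called lower in HCC1937 for 38 members and higher for 1, LY6E, a call that was lost when any of several single libraries of all 4 groups was left out. Of the 38 lower members, 16 fell in HCC1937 while they rose in HCC1395. The median difference of all list members was -1.17 log2 units, beside 0.03 over all genes tested. Their summed level was 2710 to 3060 CPM in HCC1937 EZH2i+AKTi and 2680 to 2830 CPM in HCC1937 DMSO, which overlap, and 3090 to 3330 CPM in HCC1395 EZH2i+AKTi against 2230 to 2350 CPM in HCC1395 DMSO, which do not.

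Promoters of this list often carry the core of the interferon-stimulated response element, the promoter site through which interferon acts. Among 39 members with a RefSeq promoter matched by symbol (GRCh38.p14), 23 (59%) held GAAA and, after any 2 bases, GAAA again, on either strand in the 250 bases before the gene start, beside 839 of 27305 RefSeq promoters (3.07%). The windows of IFIT1 and IFI44L are shown because IFIT1 had the smallest p-value for the difference on the list and IFI44L fell furthest in HCC1937; capitals mark each match. IFIT1 lies on chr10:89392373-89392622, plus strand, and IFI44L on chr1:78620198-78620447, plus strand.
IFIT1: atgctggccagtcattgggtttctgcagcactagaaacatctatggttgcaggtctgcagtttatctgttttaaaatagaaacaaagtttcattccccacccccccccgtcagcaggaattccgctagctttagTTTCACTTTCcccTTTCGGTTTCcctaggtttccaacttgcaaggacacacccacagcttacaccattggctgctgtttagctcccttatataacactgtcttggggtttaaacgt
IFI44L: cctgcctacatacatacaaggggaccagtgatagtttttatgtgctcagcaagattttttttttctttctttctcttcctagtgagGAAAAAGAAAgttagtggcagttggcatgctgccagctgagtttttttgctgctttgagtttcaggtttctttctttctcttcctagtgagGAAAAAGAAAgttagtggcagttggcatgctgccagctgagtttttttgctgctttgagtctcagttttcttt
Both windows held 2 matches, with the nearest 93 bases before the start in IFIT1 and 63 in IFI44L. A match describes letters only and does not show that a factor is bound there. Because the list holds known interferon-stimulated genes, its share of matches describes the list and not its response to the inhibitors. Of genes described below, IFIH1 and PLSCR1 held matches, and DDX58, MX1 and STAT2 held none.

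IFIT1, which binds foreign RNA and blocks its translation, had 12.7, 9.89 and 11.7 CPM in HCC1937 EZH2i+AKTi and 15.9, 16.5 and 15.8 CPM in HCC1937 DMSO. The HCC1395 libraries had 56.3, 52.3 and 48.8 CPM with EZH2i+AKTi and 10.3, 10.6 and 8.24 CPM with DMSO. Under DMSO the gene was higher in HCC1937 (baseline difference 0.72 ± 0.10) and under treatment higher in HCC1395, with no overlap between treated and vehicle libraries in either: the log2 fold change was -0.49 ± 0.10 in HCC1937 and 2.43 ± 0.10 in HCC1395 (SE), a difference of -2.92 ± 0.14 (adjusted p = 9.45e-12). IFI44L, an interferon-induced antiviral gene, fell to 1.46, 1.26 and 1.23 CPM in HCC1937 EZH2i+AKTi, against 2.25, 3.06 and 3.18 CPM in HCC1937 DMSO, and rose to 42.3, 36.1 and 40.4 CPM in HCC1395 EZH2i+AKTi, against 13.2, 14.1 and 13.1 CPM in HCC1395 DMSO. Its difference was -2.67 ± 0.18 (adjusted p = 5.54e-10). The sensors of viral RNA moved in the same directions. IFIH1, which encodes MDA5, fell by 0.57 ± 0.08 log2 units in HCC1937 and rose by 1.56 ± 0.08 in HCC1395 (difference -2.13 ± 0.12). DDX58, which encodes RIG-I, fell by 0.65 ± 0.09 in HCC1937 and rose by 1.45 ± 0.08 in HCC1395. PLSCR1, an interferon-induced membrane scramblase, had 78.6, 77.4 and 82.1 CPM in HCC1937 EZH2i+AKTi against 138, 138 and 123 CPM in HCC1937 DMSO, and 93.3, 95.9 and 87.02 CPM in HCC1395 EZH2i+AKTi against 44.01, 42.9 and 41.4 CPM in HCC1395 DMSO.

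The effectors OAS2 and MX1 rose in HCC1395 without a called change in HCC1937. OAS2, a synthase of the nucleotides that activate RNase L, had 4.11, 3.27 and 4.14 CPM in HCC1937 EZH2i+AKTi and 3.71, 4.48 and 3.72 CPM in HCC1937 DMSO, which overlap. With HCC1395 the same gene had 102, 82.02 and 102 CPM under EZH2i+AKTi and 17.4, 15.3 and 15.6 CPM under DMSO. MX1, a GTPase that traps viral nucleocapsids, had log2 fold changes of 0.19 ± 0.10 in HCC1937 and 2.52 ± 0.09 in HCC1395. STAT2, a transcription factor of the interferon response, rose in both lines, by 0.56 ± 0.08 in HCC1937 and 1.29 ± 0.08 in HCC1395. IFITM3, IFI6 and IFI27 were not called as different (differences 0.08 ± 0.11, -0.49 ± 0.18 and -0.30 ± 0.21); the IFITM genes are near-identical copies, so reads may be split among them. The related class I antigen presentation genes did not follow: 7 of 22 were higher and 0 lower in HCC1937 (median difference 0.23), with HLA-B rising by 1.12 ± 0.08 in HCC1937 and 0.73 ± 0.08 in HCC1395 in a family of near-identical copies.

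**Figure D2:**
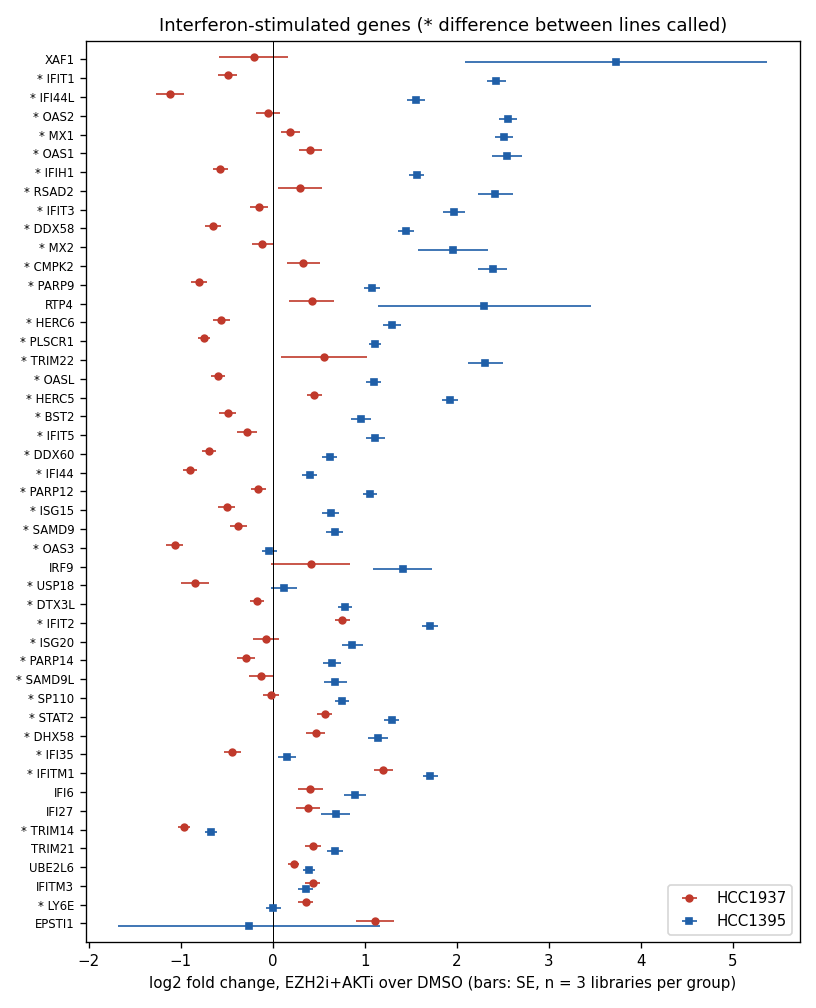
Log2 fold changes of EZH2i+AKTi over DMSO for 47 of the 48 interferon-stimulated genes tested, with HCC1937 as circles, HCC1395 as squares and bars for the SE; an asterisk marks a called difference. Squares lie right of zero for all genes but OAS3, TRIM14 and EPSTI1, while circles scatter around it, from IFI44L at -1.11 to IFITM1 at 1.20.

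Epithelial adhesion genes had the next lowest median difference among the lists. They are desmosome, adherens and tight junction parts with their regulators, high in HCC1937 and low in HCC1395 before treatment. In HCC1395, 22 of 38 rose and 2 fell; in HCC1937, 8 rose and 21 fell. The difference was lower in HCC1937 for 25 and higher for 4 (26 and 2 without HCC1395 DMSO library B), with a median of -1.14, and 12 members fell in HCC1937 while they rose in HCC1395. The levels stayed far apart all the same, since the summed CPM of the list was 4930 to 5200 in HCC1937 EZH2i+AKTi, 5910 to 6120 in HCC1937 DMSO, 852 to 982 in HCC1395 EZH2i+AKTi and 574 to 603 in HCC1395 DMSO.

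DSP encodes desmoplakin, which ties desmosomes to keratin. It did not move detectably in HCC1937, with 286, 270 and 262 CPM under EZH2i+AKTi and 267, 284 and 291 CPM under DMSO. HCC1395 libraries had 57.6, 46.6 and 72.1 CPM under EZH2i+AKTi and 3.07, 4.92 and 3.56 CPM under DMSO, a log2 fold change of 3.93 ± 0.18. The difference between lines was -3.97 ± 0.23 (adjusted p = 7.12e-08) and -4.27 without HCC1395 DMSO library B. TJP3, a tight junction scaffold, fell to 35.8, 35.8 and 39.1 CPM in HCC1937 EZH2i+AKTi, against 94.4, 85.4 and 75.7 CPM in HCC1937 DMSO, and rose to 8.38, 8.90 and 7.23 CPM in HCC1395 EZH2i+AKTi, against 1.84, 2.04 and 1.89 CPM in HCC1395 DMSO. PKP2, a plakophilin of the desmosome, fell by 0.72 ± 0.09 in HCC1937 and rose by 1.84 ± 0.11 in HCC1395. JUP, plakoglobin, rose in both lines but by 0.19 ± 0.06 in HCC1937 and 1.80 ± 0.07 in HCC1395. EPCAM, the epithelial cell adhesion molecule, fell by 0.70 ± 0.09 in HCC1937 and had 4.77, 5.50 and 4.28 CPM in HCC1395 EZH2i+AKTi against 1.38, 2.42 and 1.52 CPM in HCC1395 DMSO, where library B was the highest of the vehicle libraries. E-cadherin, CDH1, fell to 301, 295 and 315 CPM in HCC1937 EZH2i+AKTi, against 647, 725 and 703 CPM in HCC1937 DMSO, and averaged 0.731 ± 0.234 CPM in HCC1395 EZH2i+AKTi against 0.351 ± 0.262 CPM in HCC1395 DMSO, with overlapping libraries. For ESRP1, the epithelial splicing regulator, the difference was -3.21 ± 0.38 with HCC1395 DMSO library B and -4.88 without it.

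Among 28 basal and squamous markers, 10 rose and 12 fell in HCC1937, beside 28.7% rising and 25% falling over all genes. In HCC1395 12 rose and 7 fell, beside 27.4% and 25.4%. Of the differences, 7 were higher and 11 lower (5 and 12 without HCC1395 DMSO library B), beside 14.6% and 12.1%. The keratins described here had lower differences in HCC1937. KRT8 and KRT18, the simple-epithelium pair, rose in HCC1395, by 1.91 ± 0.09 and 1.42 ± 0.07. In HCC1937 the values were -0.20 ± 0.08 for KRT8 and 0.11 ± 0.07 for KRT18, of which only the first was called. The genes are neighbours whose annotated spans overlap on opposite strands. The keratins KRT5, KRT15, KRT16 and KRT6A fell in HCC1937; in HCC1395 KRT15, KRT16 and KRT6A rose and KRT5 fell less. MYLK, a myoepithelial kinase on the same list, ran the other way and rose to 54.5, 53.7 and 49.2 CPM in HCC1937 EZH2i+AKTi, against 19.2, 19.5 and 20.7 CPM in HCC1937 DMSO (difference 1.99 ± 0.11). KRT15 fell to 204, 240.5 and 274 CPM in HCC1937 EZH2i+AKTi, against 914, 872 and 754 CPM in HCC1937 DMSO, and HCC1395 had 3.78, 4.38 and 5.02 CPM with EZH2i+AKTi and 2.01, 2.27 and 2.17 CPM with DMSO. KRT5, KRT16 and KRT6A had differences of -2.11 ± 0.21, -1.66 ± 0.11 and -3.27 ± 0.26; these keratins have close paralogs. TP63, the master factor of basal epithelium, fell by 2.27 ± 0.16 in HCC1937 and by 0.52 ± 0.11 in HCC1395. GATA3, a luminal factor, rose to 187, 175 and 194 CPM in HCC1937 EZH2i+AKTi, against 58.8, 59.5 and 56.7 CPM in HCC1937 DMSO, and to 4.24, 3.24 and 4.40 CPM in HCC1395 EZH2i+AKTi, against 2.25, 2.30 and 2.77 CPM in HCC1395 DMSO (difference 0.98 ± 0.15). The luminal marker list as a whole ran the other way from GATA3. Of 19 luminal markers tested, 3 differences were higher in HCC1937, 9 lower and 7 not called (median -0.85). In HCC1937 4 of them rose and 6 fell, and in HCC1395 14 rose and 2 fell. The summed luminal level still rose in HCC1937, from 10580 CPM with DMSO to 14870 CPM with EZH2i+AKTi. In HCC1395 it rose from 393 to 746 CPM. Of the 10 epithelial identity markers, 1 rose and 6 fell in HCC1937, and 8 rose in HCC1395 with 0 falling. Yet their sum in HCC1937 was 13300 to 14700 CPM with EZH2i+AKTi, above 10400 to 11100 CPM with DMSO. ITGB4, the hemidesmosome integrin, rose in both lines, by 1.59 ± 0.06 in HCC1937 and 3.54 ± 0.06 in HCC1395. On the mesenchymal side SNAI2, a repressor of epithelial genes, rose to 73.5, 70.2 and 67.01 CPM in HCC1937 EZH2i+AKTi, against 22.4, 24.4 and 29.6 CPM in HCC1937 DMSO, with no called change in HCC1395 (0.06 ± 0.08). ZEB2 rose in HCC1937 (1.53 ± 0.21) and fell in HCC1395 (-0.43 ± 0.11), and vimentin did the reverse (-0.35 ± 0.09 in HCC1937, 0.56 ± 0.09 in HCC1395). The mesenchymal list was mixed: of 29 genes tested, 8 differences were higher in HCC1937, 5 lower and 16 not called. In HCC1937 12 of them rose and 9 fell, and in HCC1395 10 rose and 12 fell.

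**Figure D3:**
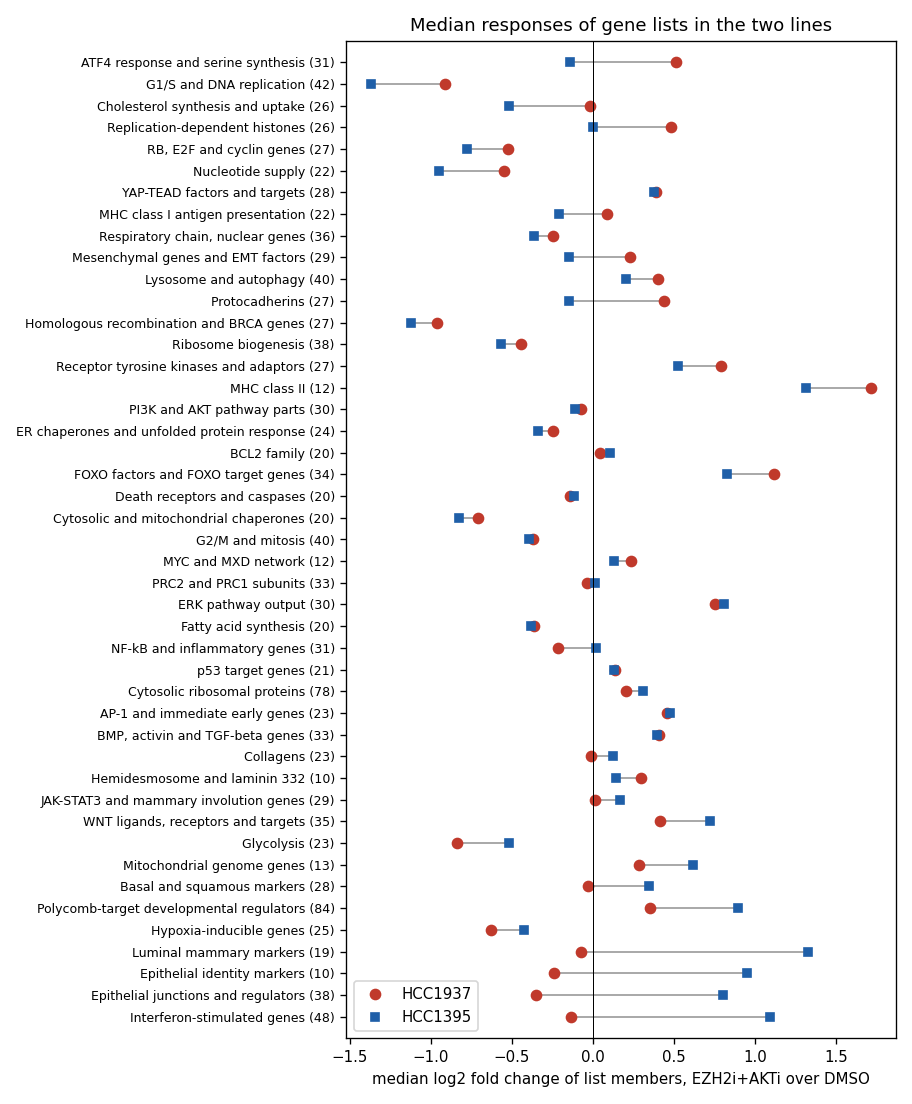
Median log2 fold change of EZH2i+AKTi over DMSO for the members of each gene list with at least 10 genes tested (number in brackets), circles for HCC1937 and squares for HCC1395, ordered by the median difference. Interferon-stimulated genes (-0.13 in HCC1937, 1.09 in HCC1395) and epithelial junction genes (-0.35 and 0.80) stand at the bottom, and ATF4 response genes (0.51 and -0.14) at the top.

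DNA replication genes fell in both lines and fell further in HCC1395. All 42 genes of G1/S transition and replication fell in HCC1937, with a median of -0.91, and 41 fell in HCC1395, with a median of -1.37. The difference was called for 32 of them, 30 higher in HCC1937, meaning a smaller fall there, and 2 lower, CDT1 and ORC1. The median difference was 0.49. Whether fewer cells were in S phase or each cell held less of these messages cannot be told apart in bulk RNA. The helicase subunits MCM2, MCM5, MCM6 and MCM7 had the smallest p-values for the difference on the list. MCM6 had 110.4, 108 and 109.7 CPM in HCC1937 EZH2i+AKTi and 194, 198 and 189 CPM in HCC1937 DMSO. HCC1395 libraries held 38.8, 37.4 and 40.99 CPM of it under EZH2i+AKTi and 169, 164 and 159.5 CPM under DMSO. Treated and vehicle libraries did not overlap in either line, and the log2 fold change was -0.83 ± 0.06 in HCC1937 and -2.07 ± 0.06 in HCC1395 (difference 1.25 ± 0.08, adjusted p = 2.84e-10). MCM2 fell by 0.65 ± 0.08 in HCC1937 and 1.89 ± 0.08 in HCC1395, and MCM7 by 0.29 ± 0.06 and 1.48 ± 0.06. CDT1, which loads the helicase, was an exception: it fell by 0.55 ± 0.07 in HCC1937 and did not change detectably in HCC1395 (0.08 ± 0.07).

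E2F factors drive many of these genes. Of 38 list members with a matched promoter, 13 (34.2%) held TTTCGCGC, TTTGGCGC or TTTCCCGC on either strand within 250 bases before the start, beside 649 of 27305 promoters (2.38%). The MCM6 window, chr2:135876444-135876693 on the minus strand in GRCh38.p14 from RefSeq, is shown for its large difference; capitals mark matches, and in each block a match on one strand overlaps a match on the other.
MCM6: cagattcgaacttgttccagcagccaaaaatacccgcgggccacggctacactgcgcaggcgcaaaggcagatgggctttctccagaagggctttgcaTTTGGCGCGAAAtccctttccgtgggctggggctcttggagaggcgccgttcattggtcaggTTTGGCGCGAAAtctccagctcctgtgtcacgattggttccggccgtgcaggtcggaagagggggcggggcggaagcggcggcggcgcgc
It held 4 matches in 2 blocks. Here too the share of promoters with a match describes the list and not its response.

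The cell-cycle machinery upstream followed the same order. Among 27 RB, E2F and cyclin genes, 15 were higher and 1 lower in HCC1937 (median difference 0.40). E2F1 fell to 90.05, 94.7 and 100.5 CPM in HCC1937 EZH2i+AKTi, against 209, 179.8 and 170.2 CPM in HCC1937 DMSO, and to 23.4, 22.3 and 20.9 CPM in HCC1395 EZH2i+AKTi, against 77.1, 80.3 and 81.97 CPM in HCC1395 DMSO; the difference was 0.87 ± 0.10 (adjusted p = 2.08e-06). CDK2, the S-phase kinase, fell by 0.38 ± 0.06 in HCC1937 and 1.41 ± 0.06 in HCC1395. CCND1, cyclin D1, rose to 1003, 975 and 963 CPM in HCC1937 EZH2i+AKTi, against 566, 586 and 614 CPM in HCC1937 DMSO, with no called change in HCC1395 (-0.11 ± 0.06). MYBL2 fell by 0.85 ± 0.06 in HCC1937 and 1.70 ± 0.06 in HCC1395. Among CDK inhibitors, CDKN1C, p57, rose in both lines and further in HCC1395: 14.6, 13.9 and 13.6 CPM in HCC1937 EZH2i+AKTi against 4.57, 3.83 and 4.32 CPM in HCC1937 DMSO, and 6.51, 6.74 and 5.37 CPM in HCC1395 EZH2i+AKTi against 0.895, 0.604 and 0.621 CPM in HCC1395 DMSO (difference -1.40 ± 0.21). CDKN1A, p21, rose by 0.35 ± 0.08 in HCC1937 and 0.81 ± 0.09 in HCC1395. Mitotic genes fell in both lines, 32 of 40 in HCC1937 and 31 in HCC1395. Of their differences 4 were higher and 1 lower, beside 14.6% and 12.1% over all genes, with a median of 0.03. MKI67, the proliferation marker, had a difference of -0.21 ± 0.23 (adjusted p = 0.581). BRCA1 fell by 1.10 ± 0.08 in HCC1937 and 1.75 ± 0.11 in HCC1395.

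**Figure D4:**
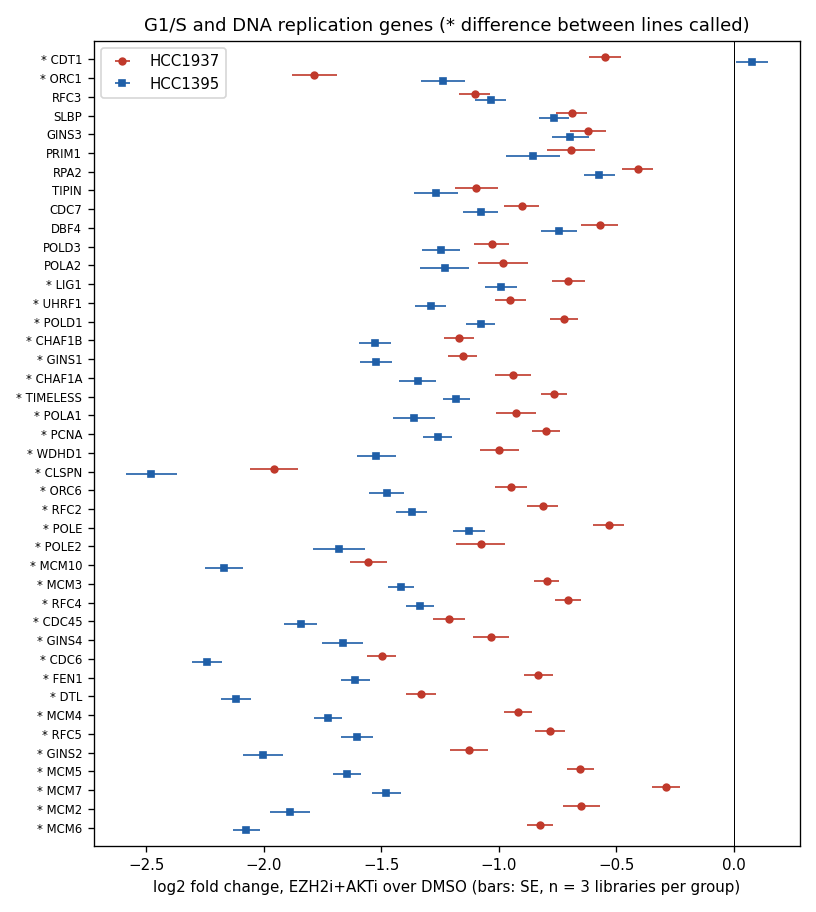
Log2 fold changes of EZH2i+AKTi over DMSO for the 42 G1/S and DNA replication genes, with HCC1937 as circles, HCC1395 as squares and bars for the SE; an asterisk marks a called difference. Squares lie left of circles for all genes but CDT1, ORC1 and RFC3, and MCM6 has the widest gap, 1.25.

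Of 23 glycolysis genes, 19 fell in HCC1937 (median -0.84) and 16 in HCC1395 (median -0.52), and the difference was lower in HCC1937 for 10, higher for 1 and not called for 12, beside 12.1% lower and 14.6% higher over all genes. GPI, the second enzyme of the pathway, fell to 167, 165 and 178 CPM in HCC1937 EZH2i+AKTi, against 651, 646 and 628 CPM in HCC1937 DMSO, and to 452, 444 and 399.8 CPM in HCC1395 EZH2i+AKTi, against 710.4, 697 and 744 CPM in HCC1395 DMSO. The difference was -1.18 ± 0.09 (adjusted p = 1.72e-09). LDHA, which makes lactate, fell by 1.85 ± 0.06 in HCC1937 and 1.12 ± 0.06 in HCC1395. HK2, a hexokinase, fell by 0.80 ± 0.06 in HCC1937 and rose by 0.20 ± 0.07 in HCC1395. PFKFB3, which makes an activator of glycolysis, fell to 56.7, 58.5 and 58.1 CPM in HCC1937 EZH2i+AKTi, against 139, 122 and 112 CPM in HCC1937 DMSO, with no called change in HCC1395 (0.14 ± 0.08). Of 25 hypoxia-inducible genes, 12 differences were lower, 4 higher and 9 not called (median -0.46). PLOD2, a collagen lysyl hydroxylase, fell by 2.07 ± 0.06 in HCC1937 and 0.86 ± 0.06 in HCC1395. BNIP3, a mitophagy receptor, fell by 1.87 ± 0.07 in HCC1937 and 0.89 ± 0.07 in HCC1395. VEGFA had no called difference and fell by 0.92 ± 0.07 in HCC1937 and 0.89 ± 0.07 in HCC1395. CA12, a membrane carbonic anhydrase, went in opposite directions, up in HCC1937 and down in HCC1395: 9.97, 8.76 and 10.8 CPM in HCC1937 EZH2i+AKTi against 0.741, 1.14 and 0.935 CPM in HCC1937 DMSO, and 12.04, 13.02 and 10.98 CPM in HCC1395 EZH2i+AKTi against 27.6, 29.6 and 29.9 CPM in HCC1395 DMSO (difference 4.65 ± 0.17, adjusted p = 4.60e-13).

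Most cholesterol synthesis genes fell in HCC1395, while in HCC1937 about as many rose as fell. Among 26 genes of cholesterol synthesis and uptake, 20 fell and 2 rose in HCC1395 (median -0.52), whereas 6 fell and 7 rose in HCC1937 (median -0.02). Over all genes 25.4% fell and 27.4% rose in HCC1395, and 25% and 28.7% in HCC1937. Of the differences 16 were higher in HCC1937 and 0 lower, beside 14.6% and 12.1%. FDPS, which makes farnesyl diphosphate, had 110.2, 110.4 and 115 CPM in HCC1937 EZH2i+AKTi and 104, 97.4 and 89.6 CPM in HCC1937 DMSO, and 84.7, 92.2 and 87.8 CPM in HCC1395 EZH2i+AKTi against 197, 186 and 202 CPM in HCC1395 DMSO. Its log2 fold change in HCC1395 was -1.14 ± 0.06 and the difference 1.35 ± 0.09 (adjusted p = 5.40e-10). ACAT2, MSMO1 and FDFT1, enzymes of the same route, had differences of 1.13 ± 0.09, 0.92 ± 0.10 and 0.84 ± 0.09.

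ATF4 target and serine synthesis genes diverged likewise: 17 of 31 rose and 5 fell in HCC1937, and 7 rose and 14 fell in HCC1395. Over all genes 28.7% rose and 25% fell in HCC1937, and 27.4% and 25.4% in HCC1395. Of the differences 17 were higher and 4 lower (median 0.52), beside 14.6% and 12.1%, so the lower ones are near the share over all genes. PHGDH, the first enzyme of serine synthesis, rose to 386, 411 and 441 CPM in HCC1937 EZH2i+AKTi, against 151, 139 and 131 CPM in HCC1937 DMSO. HCC1395 already held 1002, 1073 and 964 CPM with EZH2i+AKTi and 941, 889.9 and 985 CPM with DMSO, where the change was not called (0.11 ± 0.07). PSAT1, the next enzyme, rose by 0.57 ± 0.06 in HCC1937 and fell by 0.62 ± 0.06 in HCC1395. PCK2, mitochondrial PEP carboxykinase, rose by 1.15 ± 0.07 in HCC1937 and had -0.07 ± 0.07 in HCC1395. TRIB3, an ATF4-induced pseudokinase, rose by 0.79 ± 0.06 in HCC1937 and fell by 0.21 ± 0.06 in HCC1395. NUPR1, a stress-induced chromatin protein, rose to 185, 226 and 247 CPM in HCC1937 EZH2i+AKTi, against 20.6, 19.6 and 15.6 CPM in HCC1937 DMSO, and to 239, 292 and 210.1 CPM in HCC1395 EZH2i+AKTi, against 135, 136 and 137 CPM in HCC1395 DMSO. ATF4 mRNA itself rose by 0.80 ± 0.07 in HCC1937 and 0.91 ± 0.07 in HCC1395, with a difference of -0.11 ± 0.10 that was not called (adjusted p = 0.463).

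**Figure D5:**
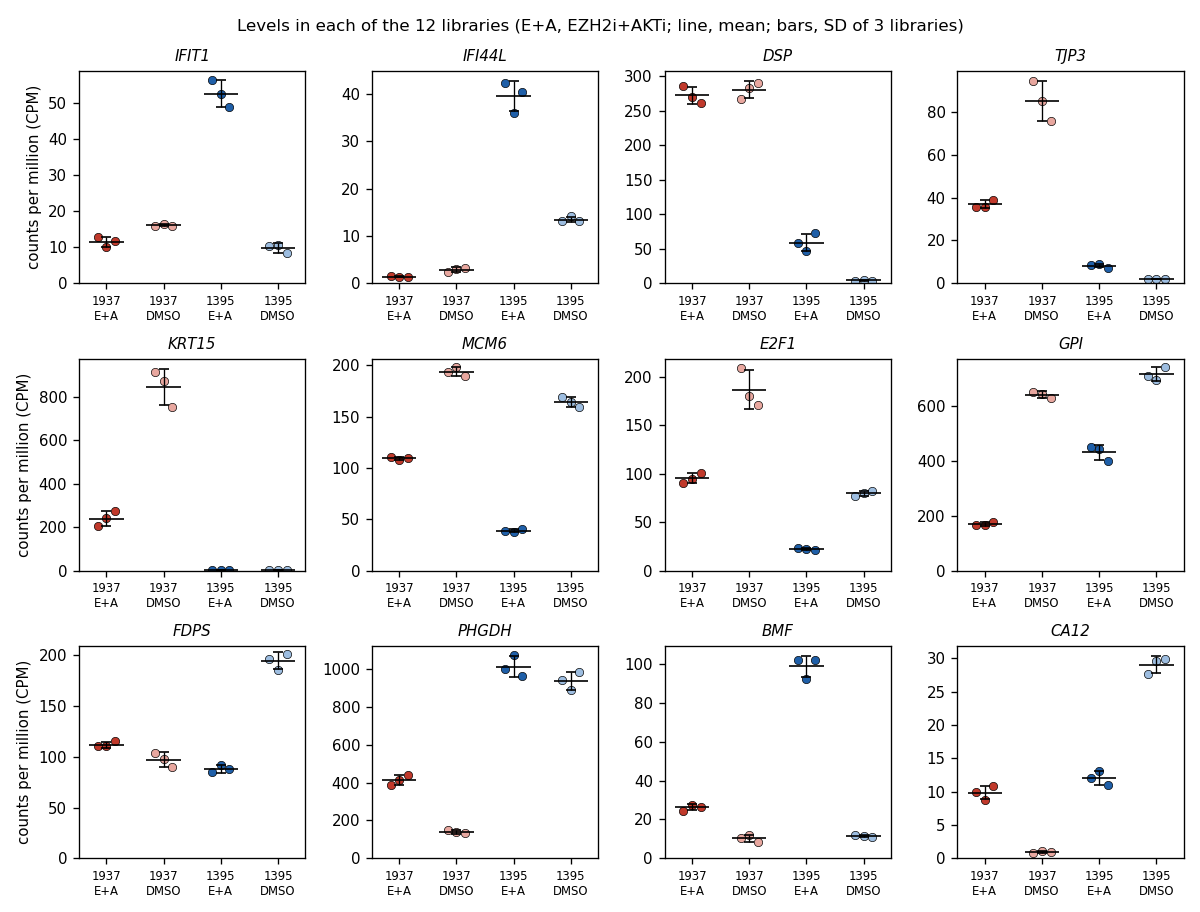
CPM in each of the 12 libraries for 12 genes, with the 4 groups along each horizontal axis; points are libraries, lines are means and bars are SDs of 3 libraries. IFIT1 rises in HCC1395 and falls in HCC1937, GPI falls further in HCC1937, MCM6 and E2F1 fall further in HCC1395, and CA12 moves in opposite directions.

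FOXO factors and targets rose in both lines, 27 of 34 in HCC1937 and 28 in HCC1395, and the difference went both ways, 13 higher and 8 lower (median 0.07). FBXO32, a FOXO-driven ubiquitin ligase gene, and IRS2, the insulin receptor substrate, rose in both with no called difference: IRS2 by 1.42 ± 0.09 in HCC1937 and 1.48 ± 0.09 in HCC1395 (difference -0.05 ± 0.12), and FBXO32 by 1.35 ± 0.06 and 1.56 ± 0.06. Of 30 PI3K and AKT pathway genes, 8 rose and 10 fell in HCC1937, 6 rose and 13 fell in HCC1395, and 6 differences were higher and 5 lower, near the shares over all genes. PIK3IP1, an inhibitor of PI3K, rose more in HCC1937, to 52.1, 62.1 and 64.8 CPM with EZH2i+AKTi against 3.85, 3.98 and 3.45 CPM with DMSO, than in HCC1395, where it had 74.9, 71.4 and 67.1 CPM with EZH2i+AKTi and 9.28, 10.5 and 10.02 CPM with DMSO. GABARAPL1, an autophagy gene, also rose more in HCC1937 (1.34 ± 0.10 for the difference), and SESN3, a brake on mTORC1, rose to 11.5, 10.8 and 9.88 CPM in HCC1937 EZH2i+AKTi, against 0.765, 0.703 and 0.54 CPM in HCC1937 DMSO, while HCC1395 had 119.7, 115 and 144 CPM with EZH2i+AKTi and 109.6, 106 and 103 CPM with DMSO. TXNIP, a brake on glucose uptake, rose by 1.22 ± 0.06 in HCC1937 and further, by 1.87 ± 0.06, in HCC1395. FOXO1 rose by 1.30 ± 0.12 in HCC1395, while its change in HCC1937 was not called (0.26 ± 0.11, overlapping libraries).

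Of 27 receptor tyrosine kinases and adaptors, 6 differences were higher, 3 lower and 18 not called, beside 26.7% called over all genes. AXL, MET and EGFR, receptor tyrosine kinases, rose in HCC1937 by 1.11 ± 0.06, 0.93 ± 0.08 and 0.74 ± 0.10, and had -0.33 ± 0.06, -0.24 ± 0.08 and -0.21 ± 0.10 in HCC1395, where AXL and MET fell. FGFR1 instead rose in HCC1395, to 155, 139 and 156 CPM with EZH2i+AKTi against 46.4, 46.2 and 48.2 CPM with DMSO, and fell by 0.21 ± 0.08 in HCC1937. IGF1R rose in both, by 1.85 ± 0.09 in HCC1937 and further in HCC1395 (difference -1.16 ± 0.13). Of 30 ERK-output genes, 10 differences were higher and 10 lower in HCC1937. HBEGF, a growth factor for EGFR, rose to 26.3, 29.02 and 29.6 CPM in HCC1937 EZH2i+AKTi, against 9.40, 9.67 and 8.73 CPM in HCC1937 DMSO, and fell to 3.21, 3.34 and 4.10 CPM in HCC1395 EZH2i+AKTi, against 7.19, 6.04 and 7.54 CPM in HCC1395 DMSO. DUSP5, an ERK phosphatase, rose by 1.63 ± 0.07 in HCC1937 with -0.15 ± 0.07 in HCC1395. MYC rose by 1.14 ± 0.07 in HCC1937 with 0.09 ± 0.07 in HCC1395. SPRY1 and SPRY2, inhibitors of receptor signalling, rose further in HCC1395 (differences -1.20 ± 0.15 and -0.95 ± 0.11). The YAP targets CTGF and CYR61, secreted matrix proteins, rose further in HCC1937, CTGF to 153, 173 and 174 CPM with EZH2i+AKTi against 4.04, 5.14 and 6.09 CPM with DMSO. In HCC1395 CTGF had 374, 378 and 400 CPM with EZH2i+AKTi and 78.6, 74.5 and 81.1 CPM with DMSO, so HCC1937 rose further yet ended lower (difference 2.73 ± 0.13).

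Death genes showed a larger rise of BMF in HCC1395. BMF, a BH3-only activator of apoptosis, had 24.6, 27.6 and 26.3 CPM in HCC1937 EZH2i+AKTi and 10.4, 11.9 and 8.15 CPM in HCC1937 DMSO. HCC1395 had 102, 92.4 and 102 CPM with EZH2i+AKTi and 11.97, 11.3 and 11.01 CPM with DMSO, so the DMSO ranges of the lines overlap and the treated ranges do not. The log2 fold changes were 1.37 ± 0.10 in HCC1937 and 3.11 ± 0.10 in HCC1395, a difference of -1.74 ± 0.14 (adjusted p = 8.43e-09). BBC3, which encodes PUMA, rose in both, by 2.21 ± 0.15 in HCC1937 and 1.71 ± 0.15 in HCC1395, with a difference of 0.49 ± 0.22 that was not called (adjusted p = 0.105). BCL2L11, which encodes BIM, fell by 0.37 ± 0.12 in HCC1937 and had 0.25 ± 0.13 in HCC1395. The survival gene BCL2L1 rose by 1.30 ± 0.08 in HCC1937 and 0.55 ± 0.08 in HCC1395 (difference 0.74 ± 0.11). Over 20 members of the BCL2 family, 2 differences were higher and 7 lower (median 0.07), beside 14.6% higher and 12.1% lower over all genes.

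EZH2, the drug target, was read beside a list of developmental regulators described as Polycomb targets. Histone methylation is not part of these counts. The list was not silent under DMSO, with summed levels of 1723 CPM in HCC1937 and 1091 CPM in HCC1395. EZH2 itself fell in both lines, to 55.4, 52.05 and 49.4 CPM in HCC1937 EZH2i+AKTi, against 87.2, 94.3 and 99.4 CPM in HCC1937 DMSO, and to 75.2, 72.3 and 71.8 CPM in HCC1395 EZH2i+AKTi, against 141, 135 and 132 CPM in HCC1395 DMSO. Its difference was 0.06 ± 0.09 and not called (adjusted p = 0.711), nor was that of EZH1, the alternative PRC2 enzyme (0.05 ± 0.12). Of 84 developmental regulators tested of 100 listed, 55 rose and 3 fell in HCC1395, and 40 rose and 11 fell in HCC1937. Among all genes 27.4% rose and 25.4% fell in HCC1395, and 28.7% and 25% in HCC1937. The difference was lower for 31 members and higher for 7 (median -0.40), beside 12.1% and 14.6%. A member near 0 under DMSO in both lines passes the low-count filter only through treated libraries, so the filter favours rises. Of these 84, 12 were under 0.1 CPM in both HCC1937 groups and 1 in both HCC1395 groups. The part of these genes in the gap between the counts was not tested. FST, follistatin, rose to 30.2, 29.9 and 32.9 CPM in HCC1937 EZH2i+AKTi, against 8.01, 9.61 and 10.3 CPM in HCC1937 DMSO, and to 23.6, 24.9 and 22.1 CPM in HCC1395 EZH2i+AKTi, against 0.678, 1.04 and 0.593 CPM in HCC1395 DMSO. IGF2BP1, an oncofetal RNA-binding protein, rose in HCC1395 (4.06 ± 0.22) with 0.28 ± 0.16 in HCC1937. BMP4, a secreted morphogen, rose by 1.45 ± 0.08 in HCC1395 and had -0.13 ± 0.08 in HCC1937. PITX1, a homeobox factor, fell by 1.17 ± 0.07 in HCC1937 and did not change detectably in HCC1395 (0.01 ± 0.07). WNT5A, a WNT ligand, was one of the 7 higher members, with 2.27, 2.33 and 2.10 CPM in HCC1937 EZH2i+AKTi against 0.526, 0.901 and 0.603 CPM in HCC1937 DMSO and a fall of 0.32 ± 0.08 in HCC1395.

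Most of the largest single differences were of genes under 1 CPM in one line before treatment, where a fitted fold change rests on few counts. The 2 largest positive differences were of FREM2, a basement membrane protein, and BCL11A, a transcription factor, for which levels are given. FREM2 had 2.68, 2.18 and 1.99 CPM in HCC1937 EZH2i+AKTi and 0.0717, 0 and 0.0208 CPM in HCC1937 DMSO, and 20.8, 15.8 and 31.1 CPM in HCC1395 EZH2i+AKTi and 33.8, 36.5 and 26.1 CPM in HCC1395 DMSO. BCL11A had 1.97, 2.05 and 2.23 CPM in HCC1937 EZH2i+AKTi and 0, 0 and 0.0208 CPM in HCC1937 DMSO, and 13.00, 12.3 and 13.04 CPM in HCC1395 EZH2i+AKTi and 6.02, 5.70 and 5.08 CPM in HCC1395 DMSO. RNF128, a ubiquitin ligase, and SMIM11A followed, of which SMIM11A varied widely between replicates and lost its call in some alternatives. RNF128 had 2.33, 2.20 and 2.91 CPM in HCC1937 EZH2i+AKTi and 0, 0.0659 and 0.0623 CPM in HCC1937 DMSO, and 37.9, 37.6 and 38.6 CPM in HCC1395 EZH2i+AKTi and 42.1, 45.1 and 42.9 CPM in HCC1395 DMSO. In HCC1937, MAN1A1, a Golgi mannosidase, rose to 19.9, 19.8 and 20.7 CPM with EZH2i+AKTi against 0.693, 0.374 and 0.561 CPM with DMSO, with 0.94 ± 0.08 in HCC1395 (difference 4.28 ± 0.17). TENM3, a teneurin, rose to 3.24, 3.46 and 3.13 CPM in HCC1937 EZH2i+AKTi, against 0.0717, 0.132 and 0.187 CPM in HCC1937 DMSO, while HCC1395 averaged 136 ± 21.5 CPM with EZH2i+AKTi and 126 ± 4.73 CPM with DMSO. GNG11, a G-protein subunit, had 4.57, 5.17 and 6.13 CPM in HCC1937 EZH2i+AKTi against 0.167, 0.132 and 0.125 CPM in HCC1937 DMSO, with a smaller rise in HCC1395 (0.98 ± 0.11). TUBA1A, an alpha tubulin with near-identical relatives, had 168, 166 and 170.3 CPM in HCC1937 EZH2i+AKTi against 14.8, 20.7 and 14.9 CPM in HCC1937 DMSO, and fell by 0.44 ± 0.09 in HCC1395. In HCC1395, COL4A5, a basement membrane collagen, rose to 3.59, 3.12 and 3.87 CPM with EZH2i+AKTi against 0.136, 0.288 and 0.0847 CPM with DMSO, and in HCC1937 it fell to 35.4, 38.9 and 37.4 CPM with EZH2i+AKTi against 53.5, 53.2 and 54.4 CPM with DMSO (difference -4.88 ± 0.24, adjusted p = 9.45e-12). SATB1, a chromatin organiser, rose in both lines, by 1.54 ± 0.08 in HCC1937 and 5.59 ± 0.17 in HCC1395. VWA5B2, whose span overlaps ALG3 on the other strand, had the lowest difference of the protein-coding genes at 2 CPM or more in a group of each line, -5.25 ± 0.29: 3.30, 5.25 and 4.75 CPM in HCC1937 EZH2i+AKTi against 10.9, 8.81 and 8.42 CPM in HCC1937 DMSO, and 6.32, 5.52 and 5.52 CPM in HCC1395 EZH2i+AKTi against 0.38, 0.345 and 0.226 CPM in HCC1395 DMSO.

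Some responses belonged to genes at or near 0 in 1 line, where the fold change of that line rests on few counts or none. The 5174 called differences hold 28 of 840 tested genes under 0.1 CPM in both HCC1937 groups. They also hold 46 of 940 under 0.1 CPM in both HCC1395 groups. The rule took protein-coding genes with both group means of the other line under 0.1 CPM and a group mean of at least 2 CPM. By it 128 genes had a called response in HCC1937 (87 rose, 41 fell) and 119 in HCC1395 (90 rose, 29 fell). Over all genes tested, 28.7% rose and 25% fell in HCC1937, and 27.4% and 25.4% in HCC1395. Genes that met both levels without a called response were not counted, so no share is given. KRT13, a squamous keratin, fell to 44.8, 51.1 and 56.2 CPM in HCC1937 EZH2i+AKTi, against 689, 564 and 443 CPM in HCC1937 DMSO, and was at most 0.04 CPM in HCC1395. HOXD9 and FZD10, a HOX factor and a WNT receptor, had 0 counts in all HCC1937 libraries, which allows up to 0.0248 CPM with EZH2i+AKTi and 0.0224 CPM with DMSO. In HCC1395, HOXD9 had 3.51, 3.76 and 3.27 CPM with EZH2i+AKTi and 0.0543, 0.201 and 0.0282 CPM with DMSO, and FZD10 1.89, 2.08 and 2.39 CPM with EZH2i+AKTi and 0.298, 0.173 and 0.198 CPM with DMSO. These limits cover counting error only.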

How the data were processed

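The deposited files used here hold raw read counts per gene, 1 file for each of the 12 libraries, with gene symbols and 58735 entries. The submitters' processing notes name fastp, HISAT2 2.0.5, DESeq2 and the build hg38; neither the counting tool nor its strand setting is stated in the sources used here. Every count column was matched to its library, with 0 columns left over. Tables the authors normalised separately for each line were not used. Symbols were looked up in GENCODE 29, and coordinates were used only for overlaps between genes; promoters came from RefSeq on GRCh38.p14, matched by symbol.

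Genes were filtered with edgeR's filterByExpr (minimum count 10), leaving 19413, scaled by TMM and fitted with 1 mean for each of the 4 groups in edgeR 4.0.16 (R 4.3.3, limma 3.58.1), with the quasi-likelihood test and Benjamini-Hochberg adjustment over all genes tested. Every adjusted p in the text comes from that test, called means an adjusted p of at most 0.05, and the error of a log2 fold change is its SE. CPM are counts relative to the TMM-scaled library size. The residual degrees of freedom were 8 and the biological coefficient of variation was 0.0783. Totals of 33469927 to 51815656 counts set the precision, and a limit for a count of 0 is 3 counts over a group's 3 libraries. Replicates differed by more than sampling noise, which does not tell whether they are separate cultures. Each library was counted as 1 sample.

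Gene lists and members were chosen with earlier results of these data known. Named genes are the 12 largest and 12 smallest called differences among protein-coding genes with a mean of 2 CPM or more in a group of each line, the 8 strongest opposite responses in each direction, the 6 strongest responses of genes under 0.1 CPM in the other line, up to 4 members of each of 50 lists with the smallest p, and a panel of 36 genes. A few genes are not reported here. Further list members were picked after their values were seen. On counts simulated for the difference between lines, 62.7% of 1.5-fold, 86.6% of 2-fold and 100% of 4-fold changes were called, with 17 false calls among 18966 genes. The changes were planted only in genes at 1 CPM or more under DMSO in both lines, so these rates do not cover lower genes. Counts were drawn independently with the fitted spread, so faults of a single library or of the scaling were not simulated. Alternatives were RLE scaling, DESeq2 1.42.0, no filter, a stricter filter of 1 CPM in 3 libraries, all 24 libraries in one fit, each line alone, a replicate block and leaving out each library in turn.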

Additional observations from a re-analysis of the deposited data

Results flagged for a closer look

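The response to EZH2i+AKTi differed between HCC1937 and HCC1395 for 5174 genes by the test of the difference itself. Among genes present at 2 CPM or more in one group of each line, with treated and vehicle libraries that do not overlap in either line, the responses below went in opposite directions, and the difference between lines passed the same test. Those that rose in HCC1937 and fell in HCC1395 had log2 differences of 4.65 for CA12, 3.68 for SPARC, a matrix glycoprotein, 2.67 for TMC4, 2.59 for HBEGF, 2.50 for PDCD1LG2, which encodes the PD-1 ligand PD-L2, 2.29 for VASH2, 2.26 for SPOCD1 and 2.24 for MYPN. SPARC had 4.95, 4.43 and 4.95 CPM in HCC1937 EZH2i+AKTi against 1.17, 1.19 and 0.956 CPM in HCC1937 DMSO, and 2.21, 3.06 and 2.39 CPM in HCC1395 EZH2i+AKTi against 7.84, 8.49 and 6.52 CPM in HCC1395 DMSO. Those that fell in HCC1937 and rose in HCC1395 had differences of -5.25 for VWA5B2, -3.50 for TM4SF18, -3.30 for TJP3, -3.27 for KRT6A, -3.14 for CP, -2.67 for IFI44L, -2.57 for FRMD4B and -2.31 for SEMA5A. CP, ceruloplasmin, had 35.2, 31.96 and 29.6 CPM in HCC1937 EZH2i+AKTi against 77.8, 81.3 and 66.3 CPM in HCC1937 DMSO, and 16.5, 13.1 and 17.2 CPM in HCC1395 EZH2i+AKTi against 3.53, 4.63 and 4.18 CPM in HCC1395 DMSO. TM4SF18 had 19.4, 18.4 and 18.1 CPM in HCC1937 EZH2i+AKTi against 91.2, 106 and 103 CPM in HCC1937 DMSO, and 15.2, 15.3 and 16.1 CPM in HCC1395 EZH2i+AKTi against 7.08, 6.85 and 8.07 CPM in HCC1395 DMSO.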

How the results depend on the processing

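The count of genes whose response differed between lines was 5174, and 5110 with RLE scaling, 5398 with DESeq2, 5168 without the filter, 5231 with the stricter filter and 4825 in a fit of all 24 libraries. Leaving out 1 library at a time gave 4510 to 5471. The direction split was 2551 higher and 2559 lower with RLE scaling, 2702 and 2696 with DESeq2, 2332 and 2493 with all 24 libraries, and 1933 higher and 2589 lower without HCC1395 DMSO library B. Opposite responses that were higher in HCC1937 and lower in HCC1395 numbered 336, and 215 to 354 when 1 library was left out, the lowest without HCC1395 DMSO library B. Genes with a difference but a response called in neither line numbered 57, and 91 without the filter. The shared letters did not pair libraries: same-letter deviations correlated between -0.312 and -0.028. With a replicate block the difference was called for 3927 genes (2108 higher and 1819 lower), and same-direction responses larger in HCC1937 became 470, against 718, and larger in HCC1395 621, against 947. The cause of these shifts was not tested. Of 251 named genes, 214 had a called difference; 192 of these were called under every alternative, 22 missed the threshold under at least 1, and 0 changed direction. Depth limits genes near 0 in one line, where fitted fold changes rest on few counts.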

Other observations

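CEBPD, a factor of the acute-phase response, rose in HCC1395 to 66.6, 71.8 and 60.5 CPM with EZH2i+AKTi against 14.1, 14.2 and 17.7 CPM with DMSO, and HCC1937 had 20.1, 20.98 and 21.6 CPM with EZH2i+AKTi and 24.8, 20.9 and 18.9 CPM with DMSO, which overlap (difference -2.15 ± 0.14). GDF15, a stress-induced cytokine, rose further in HCC1937, by 2.53 ± 0.09 against 1.38 ± 0.11 in HCC1395. ALDH1A3, which makes retinoic acid, rose by 0.91 ± 0.06 in HCC1937 and 2.52 ± 0.07 in HCC1395. SFRP1, a secreted WNT inhibitor, rose by 0.41 ± 0.06 in HCC1937 and 1.93 ± 0.07 in HCC1395. Among 35 WNT genes 15 differences were lower and 4 higher, beside 12.1% lower and 14.6% higher over all genes. BAMBI, a decoy receptor for BMP and activin, fell by 1.48 ± 0.06 in HCC1937 with 0.06 ± 0.06 in HCC1395. INHBB, an activin subunit, rose by 0.94 ± 0.09 in HCC1937 and 2.53 ± 0.12 in HCC1395.

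MHC class II genes rose in both lines, 9 of 12 in HCC1937 and 7 in HCC1395, each with none falling. Over all genes, 28.7% rose in HCC1937 and 27.4% in HCC1395. The 12 tested came from 14 listed, and 2 were under 0.1 CPM in both HCC1395 groups. HLA-DRB5 averaged 0.106 CPM with DMSO and 3.03 CPM with EZH2i+AKTi in HCC1937, and a fall from such a level could hardly be seen. HLA-DRA had 3.92, 4.03 and 3.70 CPM in HCC1937 EZH2i+AKTi against 0.406, 0.462 and 0.561 CPM in HCC1937 DMSO, and 4.26, 4.98 and 4.63 CPM in HCC1395 EZH2i+AKTi against 1.52, 1.38 and 1.95 CPM in HCC1395 DMSO (log2 fold changes 3.01 ± 0.19 in HCC1937 and 1.51 ± 0.16 in HCC1395), and their chaperone CD74 rose in both with no called difference (2.10 ± 0.10 in HCC1937, 2.07 ± 0.12 in HCC1395). Of 40 lysosome and autophagy genes, 11 differences were higher, 3 lower and 26 not called, beside 14.6% higher and 12.1% lower over all genes. SQSTM1, the cargo receptor p62, rose by 1.18 ± 0.07 in HCC1937 and 0.36 ± 0.07 in HCC1395. In HCC1395, 31 of 38 ribosome biogenesis genes fell and 1 rose, and 48 of 78 ribosomal protein genes rose and 3 fell; in HCC1937, 29 of the first fell and 31 of the second rose. Differences were called for 7 higher and 3 lower of the first, and 0 higher and 6 lower of the second, beside 14.6% higher and 12.1% lower over all genes, so the first is near the share over all genes and the second below it.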
